A study of Mus musculus with 6 samples.

Results

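The kinetochore and spindle checkpoint genes are 33 genes whose products link chromosomes to the spindle or hold back anaphase until every chromosome is attached. They were chosen by name, with earlier results of these data known. Each was read by the transcript clusters (groups of probes summarised as 1 transcript) that carry its symbol as their single gene symbol. All 33 were measured, each by 1 of the 21789 single-symbol clusters of the array. RNA came from testes of knockout mice and of control mice, both at postnatal day 15, with 3 knockout and 3 control samples on 6 Affymetrix mouse gene arrays. The labels give no strain, allele or Cre driver, so the cells in which the gene was lost are not stated in the sources used here. Whether each replicate is its own animal is not said, so the tests reflect the spread of these samples alone, and part of that spread may be technical. The values are log2 intensities after the authors' RMA normalisation, and the number of arrays limits their precision.

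A kinetochore is built in layers. The histone variant CENP-A marks the centromere and is read by a network of inner proteins, which recruits the outer network that grips microtubules. Kinetochores without a microtubule catalyse assembly of the mitotic checkpoint complex, which includes CDC20 and keeps the anaphase-promoting complex from destroying cyclin B and securin. In a testis of this age the machinery serves dividing spermatogonia, and many of its transcripts are also present in the spermatocytes that have entered meiotic prophase.

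As a set, the genes lay slightly below control in the knockout, and none passed the test. The knockout mean was below the control mean for 24 of the 33 genes, above it for 7 and equal to it for 2, where 47.0% of all tested clusters were below. The median difference, knockout minus control, was -0.08 on the log2 scale (fold 0.946), against 0.0033 over all tested clusters, 16.5% of which were at or below -0.08. At an adjusted p under 0.05 in limma, 0 members were lower and 0 higher, where the shares of all tested clusters were 0.00459% and 0.00918% (0.0138% in either direction). Without adjustment, 10 members were lower and 0 higher at a p under 0.05, where 6.45% and 4.10% of all tested clusters were (10.6% in either direction). The 3 knockout values lay entirely below the 3 control values in 12 members and entirely above them in 0, where the shares of all tested clusters were 8.60% and 6.73% (15.3% in either direction). With dim clusters (mean under the median of all rows) left out, the members were again 12 and 0. The shares of the brighter clusters were 11.6% and 7.58%. The direction over all clusters depended on the scaling. With arrays centred on their medians, 8 members were lower and 1 higher at an unadjusted p under 0.05 (4.65% and 6.90% of all tested clusters), and 9 had separate groups on the lower and 1 on the higher side (5.89% and 11.6%). The 10 members with an unadjusted p under 0.05 in the uncentred values were Bub1b, Cenpa, Kntc1, Cenph, Ndc80, Pmf1, Nuf2, Ttk, Cenpq and Cenpe. Over all 33 the differences ran from -0.37 to 0.087.

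**Figure D1:**
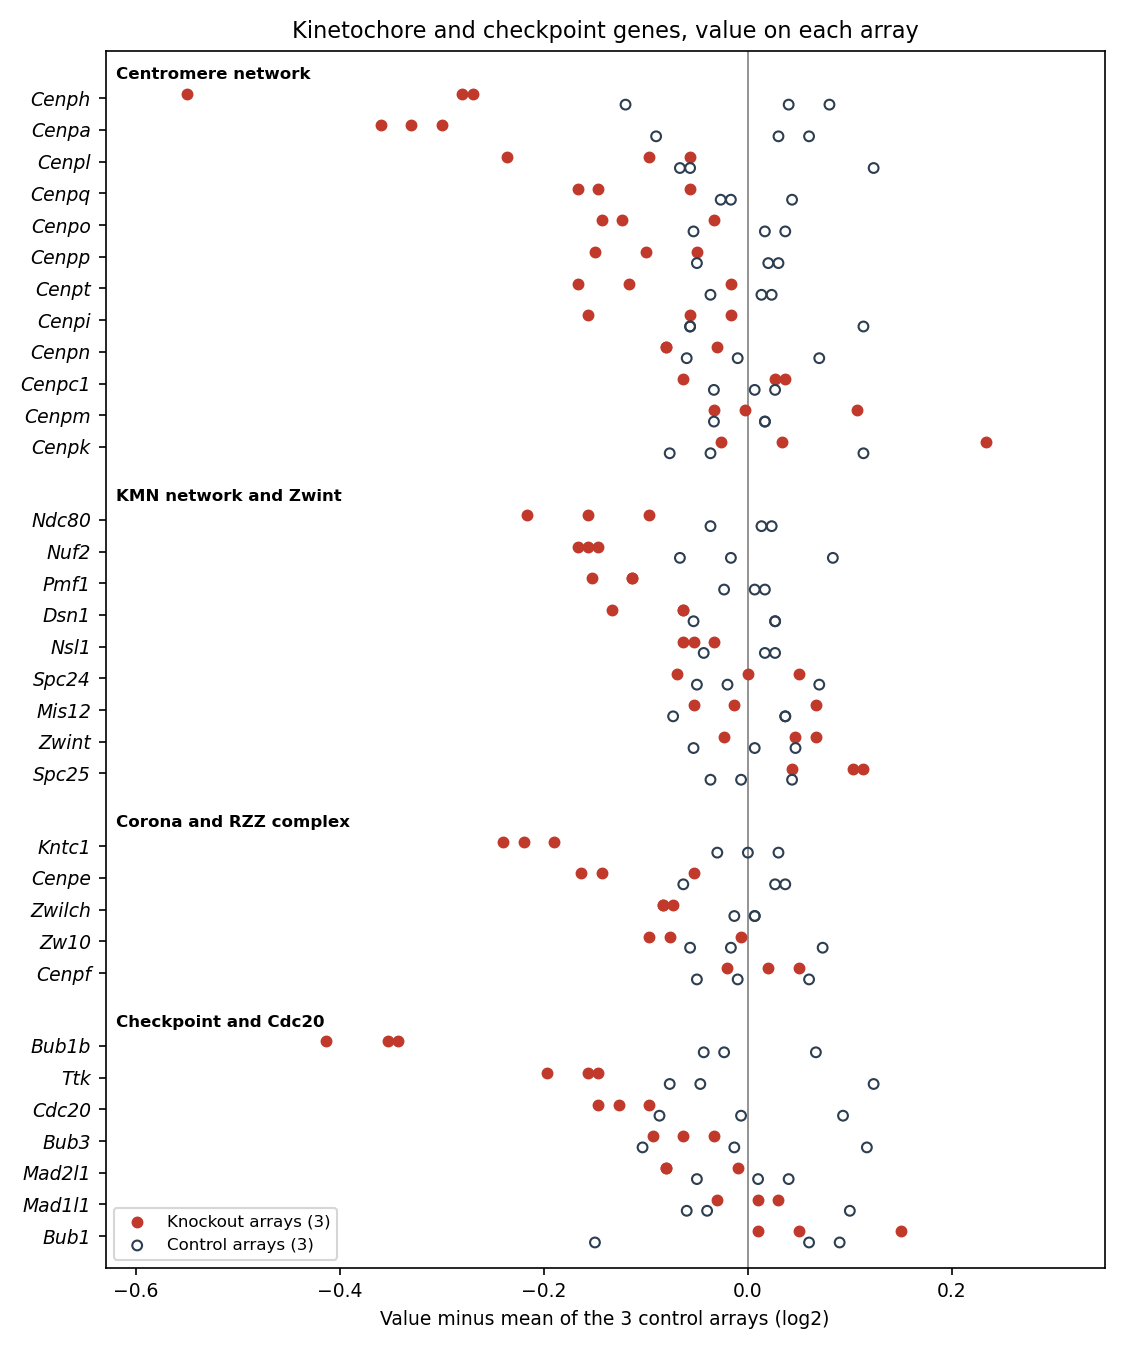
Value of each of the 33 genes on each array, as the log2 value minus the mean of the 3 control arrays, in 4 groups by role. Filled points are the 3 knockout arrays and open points the 3 control arrays. The knockout points of Bub1b, Cenpa, Cenph and Kntc1 stand well apart to the left of the control points, whereas most other genes overlap or nearly touch.

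The displacement was shared by the 3 knockout arrays. On them, 29, 25 and 25 of the 33 genes (replicates 1, 2 and 3) lay below their own control mean. The counts on the control arrays were 16, 12 and 20. These arrays make up that mean, so their values must fall around it and their counts are no independent reference. The mean over the 33 genes was 9.76, 9.80 and 9.80 on the knockout arrays, against 9.88, 9.88 and 9.87 on the control arrays. Over all tested clusters it was 8.44, 8.42 and 8.44 on the knockout arrays, against 8.44 on each control array. Knockout replicate 1 held the lowest of the 6 values in 15 genes, ties included, more than the other knockout arrays with 5 and 8. In a whole testis, fewer cells of a type and less RNA per cell cannot be told apart.

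The centromere end of the structure held both small and larger differences. Cenpa encodes the histone H3 variant that defines the centromere. Its cluster, 10520521 on chromosome 5, measured 9.49, 9.55 and 9.52 on the knockout arrays, against 9.88, 9.91 and 9.76 on the control arrays. All 3 knockout values were below all 3 control values, by at least 0.21, and the knockout values spread over only 0.06. The difference was -0.33 (SE 0.052, fold 0.796, adjusted p = 0.242), which did not pass.

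Cenph, a subunit of the constitutive centromere-associated network (the inner proteins that stay on the centromere through the cell cycle), had the larger difference of the 2 but a wider spread. Cluster 10411728 on chromosome 13 measured 8.37, 8.64 and 8.65 on the knockout arrays, against 8.96, 9.0 and 8.80 on the control arrays. The groups were separate, and knockout replicate 1 lay well under the other knockout arrays. The difference was -0.37 (SE 0.090, fold 0.776, adjusted p = 0.320). Without knockout replicate 1 it was -0.28.

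Cenpq, of the subcomplex with CENP-O, CENP-P and CENP-U, measured 9.43, 9.45 and 9.54 on the knockout arrays, against 9.58, 9.64 and 9.57 on the control arrays. The groups were separate by 0.03, less than the spread within either. Its difference was -0.12 (SE 0.047, adjusted p = 0.427). Its partners Cenpo and Cenpp each differed by -0.10, and their groups met or overlapped.

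The other members of the network had groups that overlapped. Cenpt, a DNA-binding subunit that reaches out to the Ndc80 complex, differed by -0.10, Cenpl by -0.13 (-0.068 without control replicate 2), Cenpn, which contacts the CENP-A nucleosome, by -0.06 (-0.028 without control replicate 2), and the X-linked Cenpi by -0.08 (-0.020 without control replicate 1). Cenpm was at 0.02, and at -0.018 without knockout replicate 3. Cenpc1, the scaffold that connects the CENP-A nucleosome to the Mis12 complex, averaged 9.58 ± 0.055 on the knockout arrays and 9.58 ± 0.031 on the control arrays (SD, n = 3 each). The 95% interval of its difference ran from -0.11 to 0.11, which leaves out differences of the size seen in Cenpa. No test compared Cenpc1 with Cenpa. Cenpk, another subunit, was higher by 0.08 (SE 0.081, adjusted p = 0.775): it measured 9.61, 9.67 and 9.87 on the knockout arrays, against 9.56, 9.60 and 9.75 on the control arrays. Those groups overlapped, with replicate 3 the highest in both, and the difference was 0.0033 without knockout replicate 3. Over the 12 genes of this layer the median difference was -0.10, with 9 below, 2 above and 1 equal.

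The outer network that binds microtubules, called KMN after its KNL1, MIS12 and NDC80 parts, includes the Ndc80 complex. This rod of 4 proteins holds a microtubule-binding dimer, NDC80 with NUF2, and a dimer that docks on the inner kinetochore, SPC24 with SPC25. Ndc80 (cluster 10452709, chromosome 17) measured 9.49, 9.43 and 9.37 on the knockout arrays, against 9.55, 9.61 and 9.60 on the control arrays. Nuf2 (cluster 10359890, chromosome 1) measured 9.53, 9.54 and 9.55 on the knockout arrays, against 9.63, 9.78 and 9.68 on the control arrays. Both had separate groups and the same difference, -0.16 (SE 0.047 and 0.050, adjusted p = 0.367 and 0.376), and neither passed.

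Neither gene of the docking dimer passed, and their groups met or overlapped. Spc24 averaged 8.38 ± 0.060 on the knockout arrays and 8.39 ± 0.062 on the control arrays (SD, n = 3 each), a difference of -0.0067 with a 95% interval from -0.13 to 0.12, and 0.028 without control replicate 2. Spc25 measured 9.33, 9.39 and 9.40 on the knockout arrays, against 9.25, 9.28 and 9.33 on the control arrays. It had the highest difference of all 33 genes, 0.087 (SE 0.044, adjusted p = 0.536), and the groups met at 9.33. Within each array, the mean of Ndc80 and Nuf2 minus the mean of Spc24 and Spc25 was 0.63, 0.60 and 0.60 on the knockout arrays, against 0.80, 0.83 and 0.79 on the control arrays. The difference of this contrast was -0.20. It was chosen after the values were seen, so it is a description with no test.

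The Mis12 complex bridges the inner network to the Ndc80 complex. Pmf1 (cluster 10499366, chromosome 3) measured 9.22, 9.18 and 9.22 on the knockout arrays, against 9.35, 9.34 and 9.31 on the control arrays. The groups were tight and separate, and the difference was -0.13 (SE 0.039, fold 0.916, adjusted p = 0.376). The other subunits differed less: Dsn1 by -0.09, with separate groups 0.01 apart, and Nsl1 by -0.05, with overlap. Mis12 itself averaged 9.23 ± 0.061 on the knockout arrays and 9.23 ± 0.064 on the control arrays (SD, n = 3 each), with a 95% interval of the difference from -0.12 to 0.12. Zwint, which joins KNL1 to the corona, was at 0.03 (0.0033 without control replicate 2). Over the 9 genes of this layer the median difference was -0.05.

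**Figure D2:**
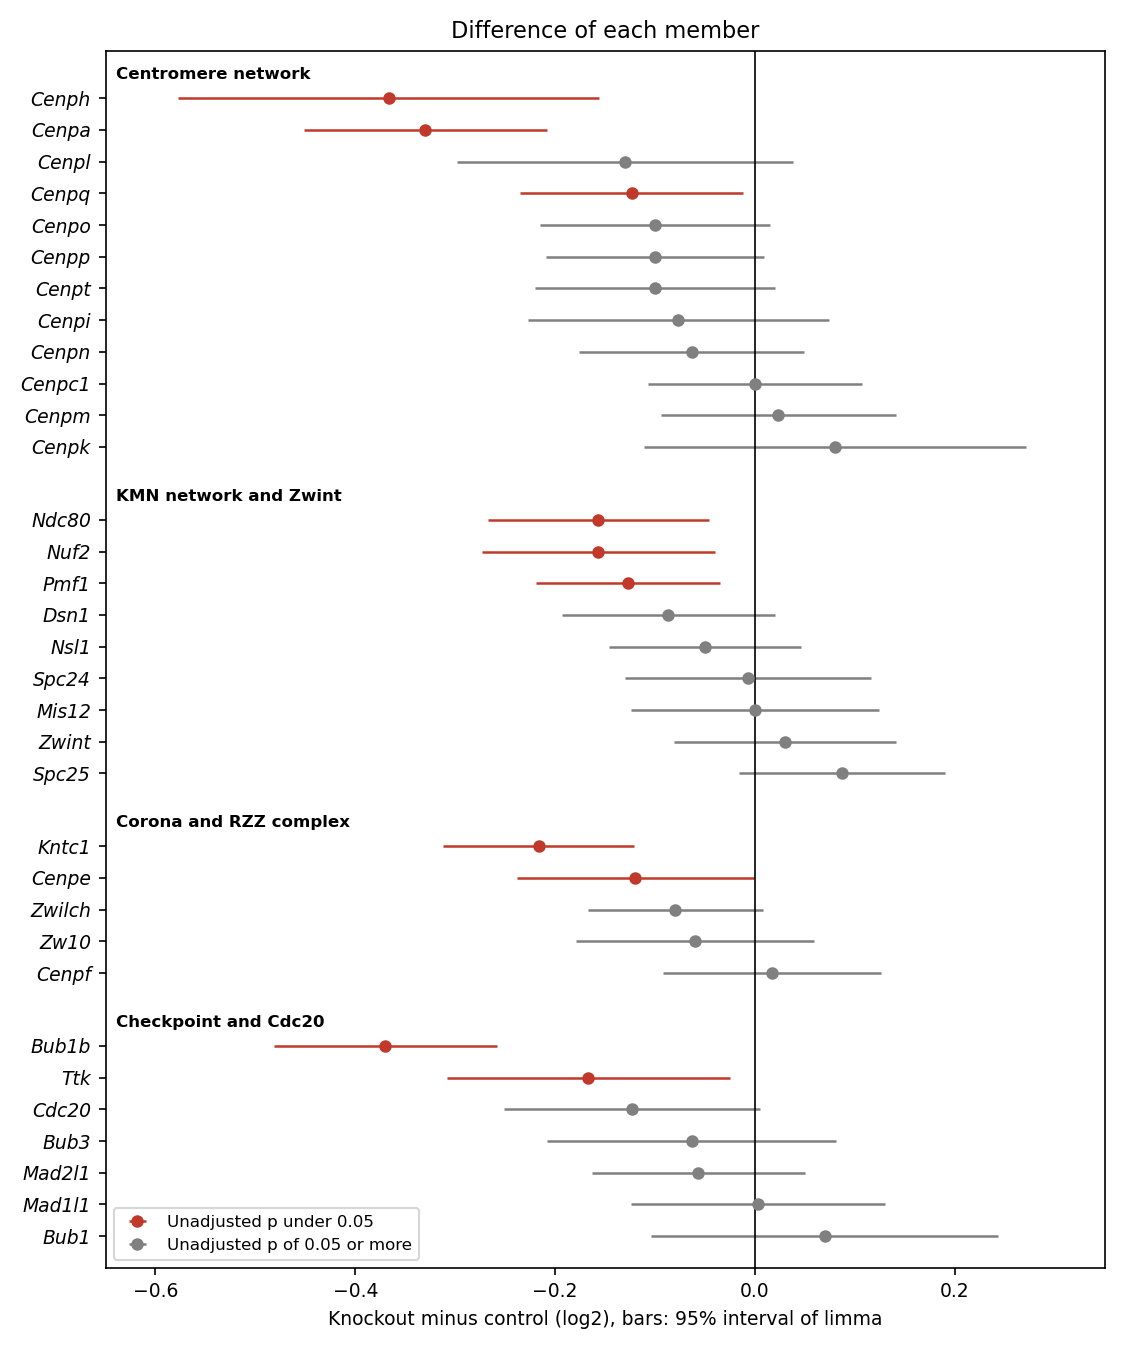
Difference of each gene, knockout minus control on the log2 scale, with its 95% interval from limma, in the same 4 groups by role. Red marks the 10 genes with an unadjusted p under 0.05, all of them on the negative side, and grey the others.

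The corona is the outermost layer, shed once microtubules attach, and its RZZ complex of ROD, ZW10 and Zwilch brings the MAD1-MAD2 template of the checkpoint to the kinetochore. Kntc1, which encodes ROD, measured 9.57, 9.62 and 9.59 on the knockout arrays, against 9.81, 9.84 and 9.78 on the control arrays (cluster 10525591, chromosome 5). The gap between the groups, 0.16, exceeded the range within either. The difference was -0.22 (SE 0.040, fold 0.861, adjusted p = 0.259). Its partner Zwilch measured 10.58, 10.57 and 10.57 on the knockout arrays, against 10.64, 10.66 and 10.66 on the control arrays, with hardly any spread and a small difference of -0.08 (SE 0.037, adjusted p = 0.503). Zw10 differed by -0.06, with overlapping groups, and by -0.023 without control replicate 3.

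Of the 2 large corona proteins, Cenpe was lower at an unadjusted p under 0.05 in limma and Cenpf was not. Cenpe, a plus-end kinesin that carries chromosomes to the spindle equator, measured 9.53, 9.62 and 9.51 on the knockout arrays, against 9.70, 9.71 and 9.61 on the control arrays. The groups overlapped by 0.01, and the difference was -0.12 (SE 0.050, adjusted p = 0.468). Cenpf, a microtubule-binding protein of the same layer that accumulates in G2, averaged 10.46 ± 0.035 on the knockout arrays and 10.44 ± 0.056 on the control arrays (SD, n = 3 each). The 95% interval of its difference ran from -0.092 to 0.13.

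Among the checkpoint proteins, Bub1b had the smallest p of all 33 genes and ranked number 10 of the 21789 clusters. It encodes BUBR1, the part of the mitotic checkpoint complex that blocks CDC20. Cluster 10474769 on chromosome 2 measured 9.64, 9.70 and 9.71 on the knockout arrays, against 10.03, 10.12 and 10.01 on the control arrays. The knockout values lay at least 0.30 below the control values, while the control values spread over 0.11. The difference was -0.37 (SE 0.047, fold 0.774, adjusted p = 0.188) and did not pass. It did pass with an intensity trend and robust prior in limma (adjusted p = 0.0440), where 7 of the 21789 clusters passed. Over all 12 alternative settings the adjusted p ran from 0.0440 to 0.640 and the difference from -0.39 to -0.34.

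Bub1, the related kinase that recruits BUBR1 to the kinetochore, was not lower. It measured 11.81, 11.77 and 11.91 on the knockout arrays, against 11.82, 11.61 and 11.85 on the control arrays, a difference of 0.07 (SE 0.074, adjusted p = 0.784) with overlapping groups, and -0.0050 without control replicate 2. The 95% interval, -0.10 to 0.24, leaves out a difference like that of Bub1b. Bub1b had the lowest difference of all 33 genes, and no test compared it with Bub1. Within each array Bub1b minus Bub1 was -2.17, -2.07 and -2.20 in the knockout, against -1.79, -1.49 and -1.84 in control. The difference of this contrast, -0.44, is likewise a description with no test, chosen after the values were seen. Since these are different probe sets, only the change of the contrast between genotypes can be read, not its level.

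Ttk, the kinase MPS1 that starts checkpoint signalling, measured 9.35, 9.34 and 9.30 on the knockout arrays, against 9.62, 9.42 and 9.45 on the control arrays. The groups were separate by 0.07, and control replicate 1 stood above the other control arrays. The difference was -0.17 (SE 0.060, adjusted p = 0.410), and -0.11 without control replicate 1. Cdc20, the activator of the anaphase-promoting complex that the checkpoint holds in check, measured 10.77, 10.72 and 10.74 on the knockout arrays, against 10.86, 10.96 and 10.78 on the control arrays. Those groups were separate by 0.01. The difference was -0.12 (SE 0.055, adjusted p = 0.483), and -0.077 without control replicate 2.

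The remaining checkpoint genes had overlapping groups. Mad2l1, whose product changes shape to capture CDC20, differed by -0.06 (-0.037 without control replicate 2) and Bub3, the adaptor that carries BUB1 and BUBR1, by -0.06 (-0.0050 without control replicate 1). Mad1l1, which anchors MAD2 at the kinetochore, averaged 9.73 ± 0.031 on the knockout arrays and 9.73 ± 0.087 on the control arrays (SD, n = 3 each), with a 95% interval of the difference from -0.12 to 0.13. All 4 genes of the mitotic checkpoint complex (Bub1b, Bub3, Mad2l1 and Cdc20) were below their control mean. Their mean was 10.54, 10.54 and 10.55 on the knockout arrays, against 10.72, 10.72 and 10.65 on the control arrays.

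**Figure D3:**
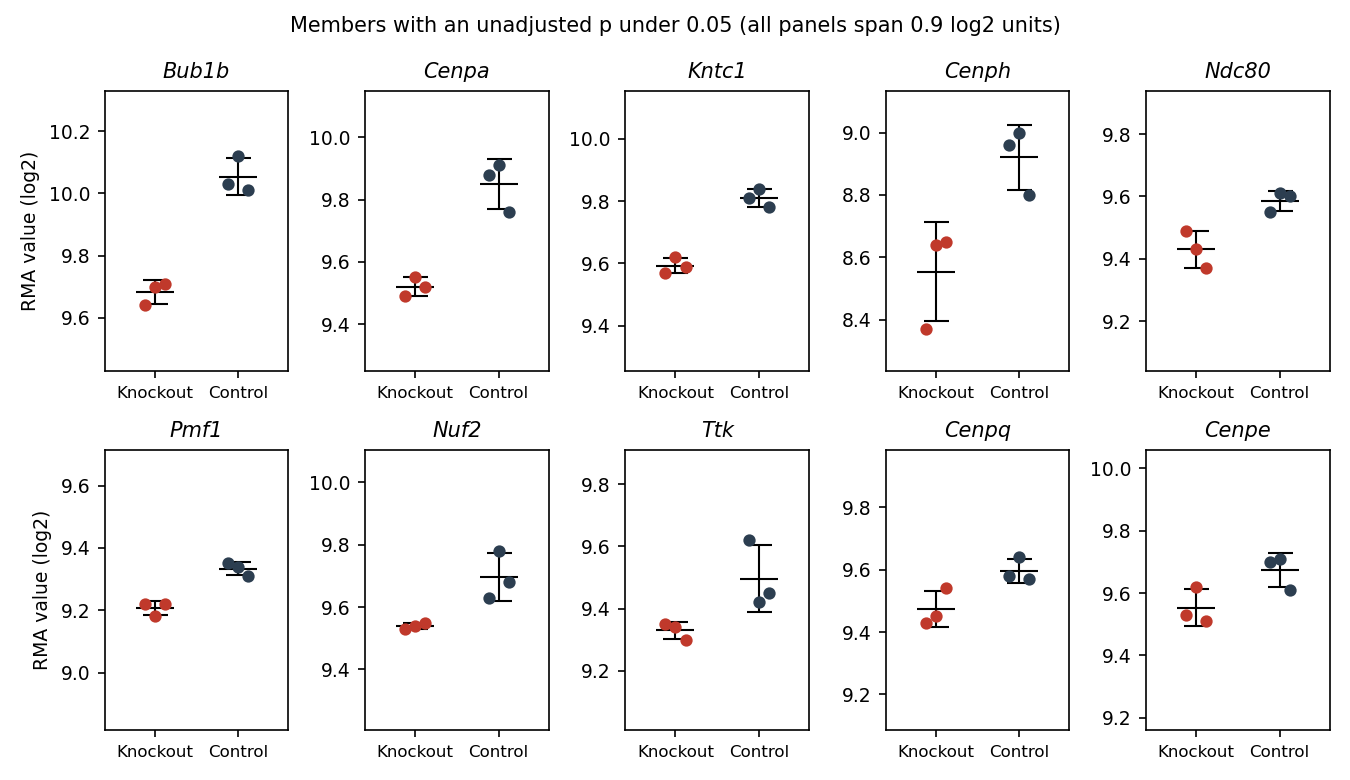
RMA values on the log2 scale of the 10 genes with an unadjusted p under 0.05, in order of p. Points are arrays, knockout on the left and control on the right, with bars at the mean ± SD of 3 arrays. All panels span the same height, so Bub1b, Cenpa and Cenph show the widest steps, and the groups of Cenpe touch.

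The promoters of the 4 members with the smallest p are shown because cell cycle genes of late G2 and mitosis commonly carry a cell cycle genes homology region (CHR), bound by the MuvB complexes, together with CCAAT boxes bound by NF-Y. The sequences are from RefSeq (build GRCm38.p6) and cover the 250 bases before the annotated start, 5′ to 3′ on the gene's strand. Capitals mark CCAAT on either strand and the CHR letters TTTGAA or TTTAAA on either strand. The windows are chr2:118597961-118598210, plus strand for Bub1b, chr5:30666636-30666885, plus strand for Cenpa, chr5:123749476-123749725, plus strand for Kntc1, and chr13:100775900-100776149, minus strand for Cenph.
Bub1b: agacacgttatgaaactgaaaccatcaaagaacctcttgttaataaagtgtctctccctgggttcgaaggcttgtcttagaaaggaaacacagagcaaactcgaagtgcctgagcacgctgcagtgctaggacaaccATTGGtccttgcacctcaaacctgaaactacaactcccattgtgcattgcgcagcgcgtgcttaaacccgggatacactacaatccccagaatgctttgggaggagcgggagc
Cenpa: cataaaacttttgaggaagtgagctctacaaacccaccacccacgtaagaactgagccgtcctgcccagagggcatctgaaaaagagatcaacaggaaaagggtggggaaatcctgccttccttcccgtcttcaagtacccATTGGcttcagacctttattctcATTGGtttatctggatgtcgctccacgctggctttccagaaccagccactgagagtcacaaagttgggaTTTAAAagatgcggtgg
Kntc1: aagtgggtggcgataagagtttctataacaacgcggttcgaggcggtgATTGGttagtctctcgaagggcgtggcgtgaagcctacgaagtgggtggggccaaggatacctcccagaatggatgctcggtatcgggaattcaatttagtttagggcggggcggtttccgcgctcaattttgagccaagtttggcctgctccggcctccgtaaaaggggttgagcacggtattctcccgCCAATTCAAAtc
Cenph: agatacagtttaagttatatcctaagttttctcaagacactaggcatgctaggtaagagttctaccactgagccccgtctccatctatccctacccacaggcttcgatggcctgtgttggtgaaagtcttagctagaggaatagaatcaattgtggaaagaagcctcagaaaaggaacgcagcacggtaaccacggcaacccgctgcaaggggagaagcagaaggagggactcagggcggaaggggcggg

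Cenpa held 2 CCAAT letters, with their first bases 109 and 86 bases before the start, and a CHR match 17 bases before it. Kntc1 held a CHR match 8 bases before the start, which overlaps a CCAAT match 12 bases before it, and a further CCAAT match 202 bases before it. Bub1b held 1 CCAAT match, 113 bases before the start, and no CHR letters in this window, and Cenph held neither. Of the 33 members, 30 had a RefSeq window (Spc24, Nsl1 and Zwilch did not match). CCAAT was found in 17 of them (56.7%), against 38.8% of 15563 array genes with a window. The CHR letters were found in 11 of 30 (36.7%), against 25.1%, of which TTTGAA was in 7 (23.3%, against 15.7%). The median difference was -0.06 for the 17 members with CCAAT and -0.10 for the 13 without. It was -0.10 for the 11 with CHR letters and -0.09 for the 19 without. A match of letters is a description and not a binding site, and no match says only that these letters are not in this window.

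**Figure D4:**
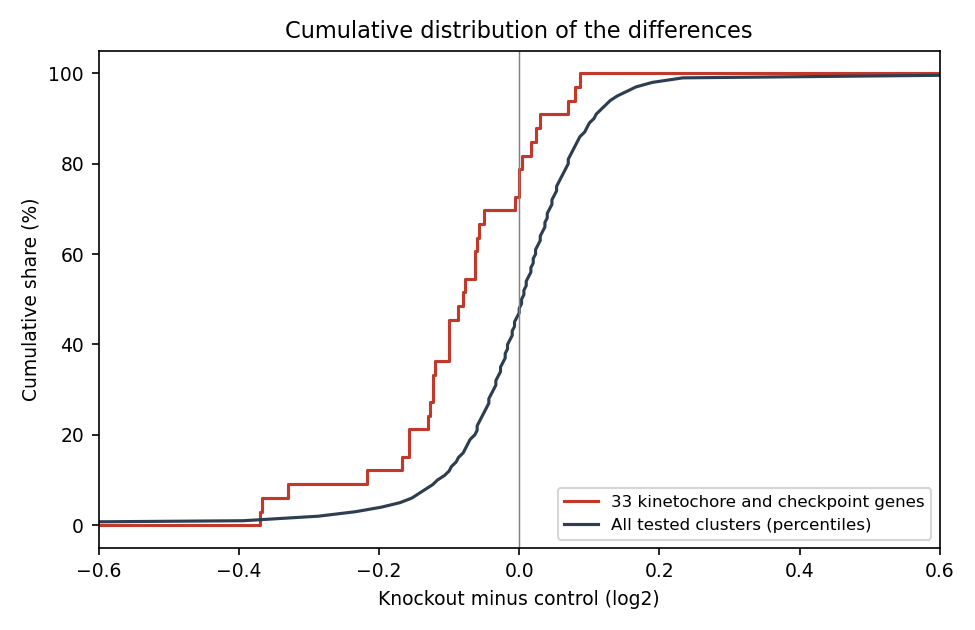
Cumulative share of the differences, knockout minus control on the log2 scale, for the 33 genes (red steps) and for all 21789 tested clusters (dark line, drawn through its percentiles). The red steps lie to the left of the dark line through most of the range and end at 0.087.

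Neighbouring genes of the pathway were described in the same way, and 0 of them passed an adjusted p of 0.05 in limma in any of the 4 lists. Of 26 measured further centromere and kinetochore genes, 22 lay under and 4 over the mean of the control arrays (median difference -0.11). At an unadjusted p under 0.05, 10 were lower and 0 higher, where 6.45% and 4.10% of all tested clusters were. The smallest p-values were those of Spag5, astrin of the spindle and kinetochore (-0.17, SE 0.049, adjusted p = 0.351), and Cenpu, the partner of Cenpq (-0.21, SE 0.062, adjusted p = 0.367). Meikin, a kinetochore protein of meiosis I chosen after its values were seen, measured 7.98, 8.20 and 8.35 on the knockout arrays, against 8.22, 8.68 and 8.58 on the control arrays, with overlap (-0.32, SE 0.14, adjusted p = 0.475). Cenpb, which binds a motif of centromeric satellite DNA and was also chosen after its values were seen, went the other way: 9.10, 9.08 and 9.08 on the knockout arrays, against 9.01, 9.01 and 9.0 on the control arrays, separate groups, but a difference of only 0.08 (adjusted p = 0.503). Knl1, the part of the KMN network outside the 33, differed by 0.05 with overlapping groups.

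The regulators that act with the checkpoint showed a like picture. In the chromosomal passenger complex, which corrects faulty attachments, 4 of 5 genes were below the control mean (median -0.13). Its smallest p-values were those of Birc5, survivin (-0.18, SE 0.047, adjusted p = 0.336), and Incenp, the scaffold (-0.16, SE 0.060, adjusted p = 0.418). The anaphase-promoting complex, the target of the checkpoint, and separase differed less: of 19 genes 14 were below, 4 above and 1 equal, with a median of -0.04. Of the 19, 2 genes were lower at an unadjusted p under 0.05, where 6.45% of all tested clusters were. These were Espl1, separase, which cuts cohesin (-0.21, SE 0.057, adjusted p = 0.342), and Pttg1, securin, its inhibitor (-0.14, SE 0.056, adjusted p = 0.438). Of 16 measured genes of the mitotic cell cycle, 14 were below and 2 above (median -0.11). At an unadjusted p under 0.05, 5 were lower and 0 higher (6.45% and 4.10% of all tested clusters). The smallest p-values were those of the kinesin Kif20a (-0.21, SE 0.041, adjusted p = 0.275) and Prc1, which bundles midzone microtubules (-0.23, SE 0.052, adjusted p = 0.294).

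Markers of the cells in the testis were set beside these genes, as the mean of the log2 values of each list on each array. Defining genes of the labelled tissue were present, with values far above the array medians of about 8.1. The germ cell gene Ddx4 lay at 11.78 to 11.96 on the knockout arrays and 11.98 to 12.14 on the control arrays. Of the 5 germ cell markers, 3 were below and 2 above the control mean. Those above were Dazl (0.0067) and the dim Dppa3 (0.27, separate groups). The mean of the 5 was 10.56, 10.53 and 10.62 on the knockout arrays, against 10.64, 10.66 and 10.57 on the control arrays. The Sertoli cell gene Sox9 lay at 11.65 to 11.77 on the knockout arrays and 11.64 to 11.66 on the control arrays. Spermatogonial markers averaged 9.63 to 9.65 on the knockout arrays, against 9.68 to 9.80 on the control arrays. Of 9 of them, 5 were lower and 1 higher at an unadjusted p under 0.05, where 6.45% and 4.10% of all tested clusters were. The higher one was Gfra1 (0.39), the GDNF receptor of stem cells. The Sertoli list lay at 11.08 to 11.16 on the knockout arrays, against 11.02 to 11.06 on the control arrays, and the macrophage list at 9.34 to 9.39 on the knockout arrays, against 9.15 to 9.31 on the control arrays. Of 9 Sertoli genes 8 were above and 1 below the control mean, and all 7 macrophage genes were above it. At an unadjusted p under 0.05 in limma, 1 Sertoli gene (Kitl, 0.28, adjusted p = 0.235) and 3 macrophage genes were higher and 0 lower. The shares of all tested clusters were 4.10% and 6.45%. The Leydig list had the highest median difference of the cell type lists, 0.38 over 4 genes, all 4 above the control mean. It lay between 9.97 and 10.2 on the knockout arrays, against 9.50 to 9.92 on the control arrays, with every knockout array above every control array. Only Cyp11a1 had separate groups or an unadjusted p under 0.05 (6.73% and 4.10% of all tested clusters, higher side). None passed in limma (smallest adjusted p = 0.367). Cyp17a1 measured 11.06, 10.98 and 11.40 on the knockout arrays, against 11.27, 11.06 and 9.93 on the control arrays. Star measured 9.88, 9.84 and 10.79 on the knockout arrays, against 9.92, 9.83 and 9.41 on the control arrays. The part of cell composition in the differences of the kinetochore genes was not tested.

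The pachytene list had the lowest median difference of the cell type lists, -0.68 over 8 genes, all 8 below the control mean. In limma, 6 of them were lower and 0 higher at an unadjusted p under 0.05. The shares of all tested clusters were 6.45% and 4.10%. None passed (smallest adjusted p = 0.320). The mean of this list varied among the control arrays far more than that of the kinetochore genes. The mean of 8 pachytene genes was 8.56, 8.63 and 8.86 on the knockout arrays, against 8.77, 9.47 and 9.37 on the control arrays, so control replicate 1 lay among the knockout arrays. On the same control arrays the 33 kinetochore and checkpoint genes averaged 9.88, 9.88 and 9.87. Whether the pachytene cell content of the samples contributes to the differences of the 33 genes was not tested. Without control replicate 1, the median difference of the 33 genes was -0.09, and 15 of them had separate groups on the lower side, where 13.1% of all tested clusters had. The leptotene and zygotene list lay at 10.26, 10.28 and 10.49 on the knockout arrays, against 10.46, 10.42 and 10.54 on the control arrays. Knockout replicates 1 and 2 were below every control array and replicate 3 was among them. Of the 7 genes, 3 had separate groups, all on the lower side, where 8.60% of all tested clusters had. These 3 were Rec8 (-0.40), Spo11 (-0.35) and Sycp3 (-0.097), and none passed in limma (smallest adjusted p of the list 0.256). The median difference of the list was -0.03, and Sycp1, Dmc1, Meiob and Hormad1 differed by between -0.03 and 0.01.

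**Figure D5:**
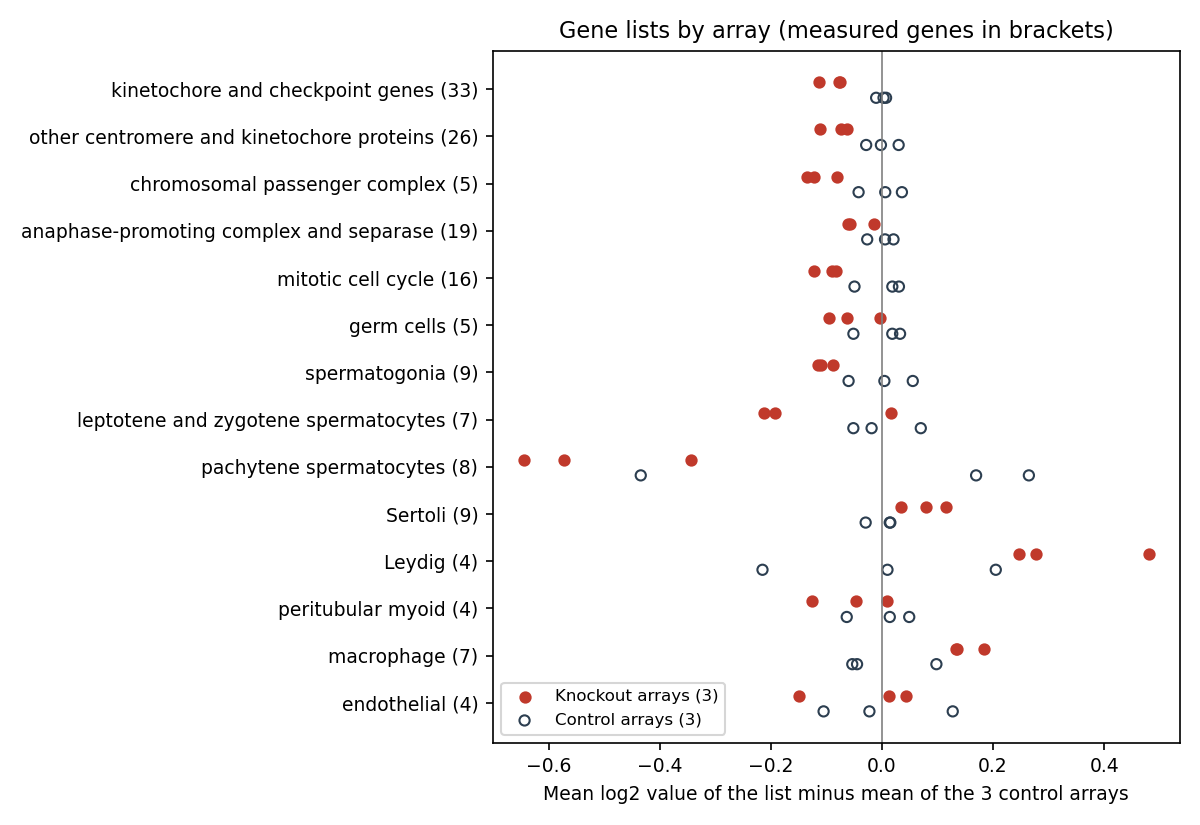
Mean log2 value of each gene list on each array, minus the mean of the 3 control arrays, with the number of measured genes in brackets. Filled points are the 3 knockout arrays and open points the 3 control arrays. The 3 knockout points of the kinetochore and checkpoint genes lie together to the left of the tight control points, while 1 control point of the pachytene list lies among the knockout points.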

How the data were processed

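Per the submitters' processing notes, the authors made the deposited log2 values with RMA in Affymetrix Expression Console. Their versions, the probe annotation and the build were not given in those notes. Quantile normalisation within RMA hides any shift common to all transcripts, and dim clusters show compressed differences. Array medians lay between 8.075 and 8.1.

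Of 35556 rows, 21789 had a single symbol in the platform annotation and were tested. The comparison, knockout minus control, used limma 3.58.1 under R 4.3.3 (lmFit, eBayes, no covariates, 4 residual and 3.24 prior degrees of freedom), adjusted by Benjamini-Hochberg over those rows with a threshold of 0.05. The procedure was tested on simulated data. Each member had 1 cluster, so the choice of the cluster with the highest mean did not arise. Chromosomes came from RefSeq GRCm38.p6.

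Members, gene lists and the contrasts between partner genes were chosen with earlier results of these data known. Described in full are members with an unadjusted p under 0.05, the 3 highest differences, and the smallest and largest p of each role group. Of each pathway list the 2 smallest p are named. Same-numbered arrays had deviations correlated at 0.17, -0.054 and 0.17. Knockout replicates 1 and 3 correlated best with their own number, and knockout replicate 2 with control replicate 1 (0.084). The labels do not say that same-numbered arrays are pairs, so the main fit took none, and the replicate block was an alternative. The targeted gene is not reported here, and list genes without a single-symbol cluster were not analysed here.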

Additional observations from a re-analysis of the deposited data

How the results depend on the processing

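Over 12 alternatives, the count of members past an adjusted p of 0.05 in limma was 0 except with an intensity trend and robust prior, where it was 1, Bub1b. In that setting 7 of the 21789 clusters passed, against 3 in the main fit. Without control replicate 1, 52 clusters passed and 0 members did. The count of members lower at an unadjusted p under 0.05 was 10, and ran from 7 (without control replicate 1, where 6.15% of all clusters were) to 13 (with the trend and robust prior, 7.18% of all clusters, or with dim clusters left out, 9.74%). With the replicate block it was 9 (6.57% of all clusters), with 0 members past the adjusted threshold. Knockout replicate 2 did not correlate best with its own number. With arrays centred on their medians the median difference was -0.06, 9 members had separate groups on the lower side against 12, 23 members were below and 10 above the control mean against 24 and 7, and on the higher side 1 member had separate groups and 1 an unadjusted p under 0.05 (Spc25 in both). Leaving out 1 array at a time, the median difference ran from -0.098 to -0.077, the members with separate groups on the lower side from 12 to 17 (12.1% to 14.3% of all clusters), and those on the higher side from 0 to 3 (10.5% to 13.1%). Signs turned for genes near 0 when 1 array was left out: Cenpf ran from -0.0083 (without control replicate 2) to 0.047, Bub1 from -0.0050 (without control replicate 2) to 0.12, and Mad1l1 from -0.027 (without control replicate 2) to 0.053, with -0.017 without control replicate 1 and -0.010 without knockout replicate 3. Cenpm was -0.018 without knockout replicate 3, and Spc24 was 0.028 without control replicate 2 and 0.025 without knockout replicate 3, while Cenpc1 and Mis12, with no difference over all arrays, took either sign. Cenpl was among the dim clusters and gave no value in that setting. Background signal per array was not used here, so which members lie near background is not known.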
